A study of Mus musculus with 3 samples.

Results

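The 10 genes described here encode the cytokines interleukin-1 and tumour necrosis factor (TNF) and proteins that act beside them: Tnf, Il1a, Il1b, Il1rn, Il6, Il18, Nlrp3, Ptgs2, Ccrl2 and Tnfrsf1b. They were chosen by symbol, and all 10 were found among the 32285 genes of each matrix. The cells were sorted from mouse brain as CD45int CD11b+, at 4 degrees, on day 4 after induction of NMOSD (short for neuromyelitis optica spectrum disorder, in which autoantibodies attack the optic nerves, spinal cord and brain) or after sham induction. All animals, the sham group included, were Apoe knockouts, so no library came from mice with a working Apoe gene. The 3 groups were sham induction with PBS, NMOSD plus a control peptide, and NMOSD plus the peptide APOE130-149. Each group was 1 library made from 4 pooled mice, and the sources used here do not give the strain or age of the mice or how NMOSD was induced.

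Interleukin-1 alpha, interleukin-1 beta and TNF are early signals of innate immunity. They act through receptors that lead to NF-kappaB and MAP kinase signalling, and each can raise the transcription of the others. The interleukin-1 beta and interleukin-18 precursors are cut to their active forms by caspase-1, which is switched on by inflammasomes such as the one built around NLRP3, so the RNA level of these genes does not show how much active cytokine is made. In the brain, microglia, the resident macrophages, are a known source of TNF and interleukin-1 alpha, while neutrophils and monocytes that enter from blood can make interleukin-1 beta in large amounts.

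With 1 library a group there is no replicate, so no test between groups was possible and no p-value is given. Brackets hold exact 95% intervals, Poisson for levels, conditional binomial for ratios and Clopper-Pearson for shares, and they cover counting error only, not the spread between mice. Levels are in CPM, the UMIs (unique molecular identifiers, 1 per captured RNA molecule) of a gene per 1000000 UMIs of the cells named. The comparisons of each NMOSD library with sham share the sham library, and the comparisons of control peptide with sham and of APOE130-149 with control peptide share the control peptide library.

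The libraries held 4674 barcodes and 32712199 UMIs in sham, 5306 and 61469677 in control peptide, and 2175 and 32060750 in APOE130-149. After a filter on cells, 4231, 5011 and 2025 cells remained, with median UMIs per cell of 7124, 7848 and 9991. Sham and control peptide shared 9 barcodes, control peptide and APOE130-149 shared 3, and sham and APOE130-149 shared 0. Cells were assigned to types from UMIs of marker lists per 10000 UMIs of the cell. Gated microglia numbered 3381, 4164 and 1660, which was 79.9%, 83.1% and 82.0% of cells in sham, control peptide and APOE130-149 order, the order used throughout. The other gated types were thin: 20, 17 and 21 border-associated macrophages, 35, 68 and 41 neutrophils, and 27, 45 and 26 monocytes. The markers that defined these types stood highest in their own gated type, but were not confined to it. P2ry12, a microglial receptor, stood at 2470 to 2669 CPM in gated microglia. It was at 367 to 475 CPM in border-associated macrophages and 35.5 to 83.8 CPM in neutrophils and monocytes. S100a9, a neutrophil protein, stood at 163399 to 171921 CPM in neutrophils and 95.2 to 151 CPM in microglia. Ly6c2, a monocyte marker, was at 1546 to 1989 CPM in monocytes and 1003 to 1288 CPM in neutrophils. Mrc1, a marker of border-associated macrophages, was at 2026 to 2706 CPM in them and 16.7 to 24.7 CPM in microglia. Cells that met no gate were 693, 541 and 206, and they held more of some members' UMIs than any gated type, as given below.

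The promoters of Tnf and Ccrl2, the members at 10 CPM or more whose levels differed most between sham and NMOSD microglia, are shown beside those of Il1b and Il1a, whose levels in microglia differed little. Each is the 250 bases before the transcript start in the RefSeq annotation of GRCm38.p6, the assembly of mm10, on the minus strand and written 5′ to 3′. Tnf lies at chr17:35202008-35202257, Ccrl2 at chr9:111057519-111057768 (the first of 3 starts), Il1b at chr2:129371140-129371389 and Il1a at chr2:129309973-129310222. Capitals mark TATAAA, the TATA box, GGNNTTTCC, an NF-kappaB-type motif, and TGANTCA, the AP-1 motif, all searched on both strands.
Tnf: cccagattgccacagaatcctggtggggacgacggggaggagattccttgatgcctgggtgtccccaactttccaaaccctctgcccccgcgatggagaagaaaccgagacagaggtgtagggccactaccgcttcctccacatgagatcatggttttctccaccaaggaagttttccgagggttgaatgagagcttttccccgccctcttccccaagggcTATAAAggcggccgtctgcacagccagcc
Ccrl2: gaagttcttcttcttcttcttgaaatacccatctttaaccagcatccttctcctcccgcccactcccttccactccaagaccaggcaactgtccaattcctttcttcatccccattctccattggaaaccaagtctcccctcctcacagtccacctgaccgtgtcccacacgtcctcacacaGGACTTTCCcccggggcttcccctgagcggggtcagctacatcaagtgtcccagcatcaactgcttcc
Il1b: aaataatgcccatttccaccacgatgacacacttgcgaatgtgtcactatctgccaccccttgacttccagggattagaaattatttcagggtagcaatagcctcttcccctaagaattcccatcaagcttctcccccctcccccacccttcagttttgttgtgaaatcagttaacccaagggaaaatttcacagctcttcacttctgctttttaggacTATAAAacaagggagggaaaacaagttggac
Il1a: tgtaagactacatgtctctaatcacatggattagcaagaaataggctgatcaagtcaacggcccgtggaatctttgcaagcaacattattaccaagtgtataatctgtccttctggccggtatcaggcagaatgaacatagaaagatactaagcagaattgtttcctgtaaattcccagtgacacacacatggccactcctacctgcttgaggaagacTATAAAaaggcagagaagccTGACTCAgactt

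Counts of members with a motif use the first listed start of each gene, as do those over all promoters. The TATAAA match stood 29, 31 and 32 bases before the start in Tnf, Il1b and Il1a. Of 27025 RefSeq promoters of the same length, 3504 hold TATAAA, and 4 of the 10 members do, the remaining one being Il18 with a match 175 bases before its start. The NF-kappaB-type motif was found in Ccrl2, Il6 and Nlrp3, 3 of 10 against 4.84% of all promoters (a later start of Il1rn also holds one, 50 bases before it), and the AP-1 motif in Il1a, Il6 and Il1rn, 3 of 10 against 6.87%. The C/EBP motif TTGCNNAA was in Il6 and Ptgs2, 2 of 10 against 9.55%, and the cAMP response element TGACGTCA was in 0 of 10 against 1.62%. These matches describe letters in a short window, and nothing is drawn from a motif that is missing there.

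In GRCm38 coordinates, Tnf is at chr17:35199381-35202007 on the minus strand. Il1a (chr2:129299610-129309972) and Il1b (chr2:129364570-129371139) are neighbours on the minus strand, 54597 bases apart. Il1b overlaps the antisense gene Il1bos, Il1a overlaps the transcript Gm14023, and Il18 overlaps Bco2 and Tex12, all on the opposite strand. Whether the counting used strand is not given in the sources used here, so reads of these pairs may not be told apart.

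TNF is a cytokine made by activated macrophages. In gated microglia Tnf stood at 3.40 CPM [2.76 to 4.15] in sham, 10.7 [9.82 to 11.7] in control peptide and 15.2 [13.7 to 16.8] in APOE130-149, from 97, 522 and 379 UMIs. The level was lowest in sham and highest in APOE130-149, and the 3 counting intervals did not overlap. These intervals treat UMIs as independent, so they are too narrow where few cells hold many of the UMIs, as described next. The control peptide library was 3.15-fold [2.53 to 3.95] above sham, and the APOE130-149 library was 4.47-fold [3.57 to 5.65] above sham. APOE130-149 over control peptide was 1.42-fold [1.24 to 1.62], which is under the 1.5-fold used here to call a gene.

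The Tnf UMIs were held by few cells. A Tnf UMI was seen in 66, 307 and 170 microglia, or 1.95%, 7.37% and 10.2%, and 2 or more UMIs in 16, 93 and 48 cells. The richest cell held 8, 37 and 46 UMIs. The 0.25% of microglia with most Tnf UMIs, 9, 11 and 5 cells, held 34.0%, 23.6% and 36.7% of its UMIs, and the top 1% held 67.0%, 39.5% and 50.7%. Without the top 0.25% the levels were 2.24, 8.19 and 9.63 CPM, in the same order but below the 10 CPM asked of a called gene. With each cell weighted equally, or without cells above 2 times the median UMIs, Tnf in control peptide was 9.66 and 8.45 CPM against 2.63 and 2.47 in sham, so that call also rests on a level near the minimum. Non-myeloid cells, as a type with little expected Tnf apart from lymphocytes among them, had a Tnf UMI in 0 of 1, 3 of 49 and 0 of 19 cells, too few to set a background.

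**Figure D1:**
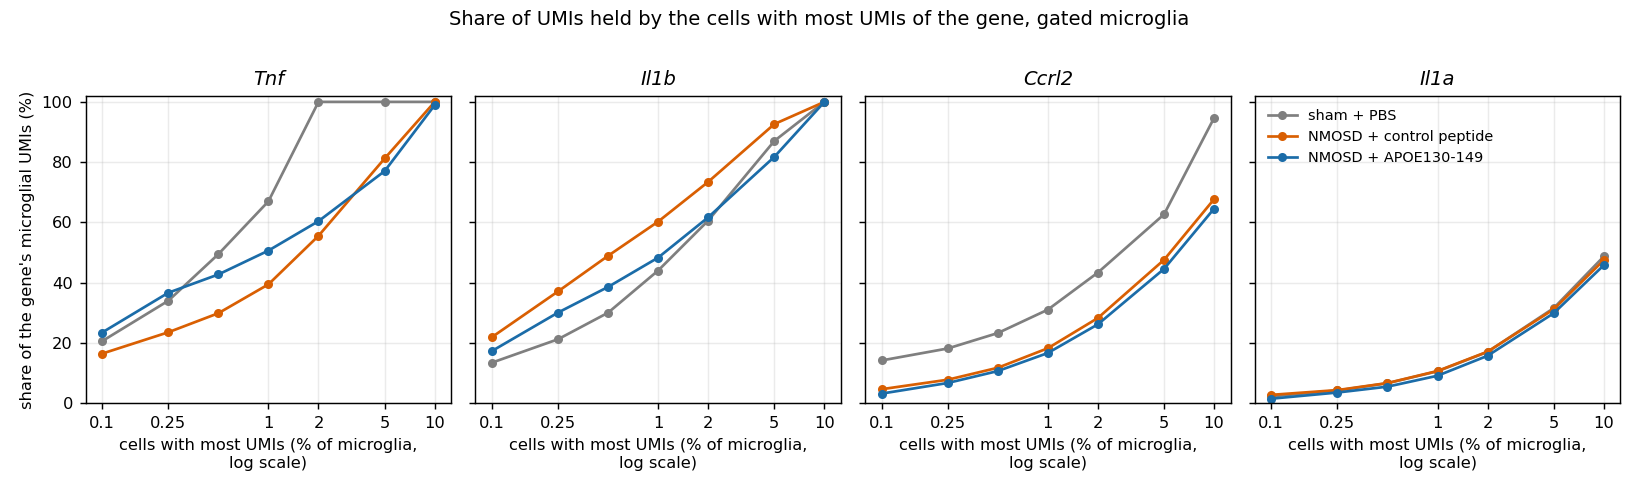
Cumulative share of each gene's UMIs in gated microglia (vertical axis, percent) against the share of microglia taken from the cell with most UMIs downward (horizontal axis, percent of cells on a log scale), 1 line per library and 1 panel per gene. For Tnf the top 1% of cells held 67.0% of UMIs in sham, 39.5% in control peptide and 50.7% in APOE130-149, and for Il1b 44.0%, 60.3% and 48.3%.

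Because cells of the APOE130-149 library were deeper (median 10048 UMIs in gated microglia, against 7760 in sham and 7873 in control peptide), shares of cells were also taken after each cell was thinned to 5000 UMIs. This left out 810, 590 and 182 shallower microglia. The share with a Tnf UMI was then 1.40% [0.983 to 1.93], 3.67% [3.07 to 4.33] and 4.26% [3.29 to 5.42]. Both NMOSD libraries stayed above sham at equal depth, while their intervals overlapped each other. At 2000 UMIs the shares were 0.516%, 1.66% and 2.47%.

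Ccrl2 encodes an atypical receptor that binds chemerin without signalling through G proteins and is induced in activated myeloid cells. Its level in gated microglia was 18.5 CPM in sham, 35.2 in control peptide and 37.5 in APOE130-149, from 528, 1714 and 935 UMIs. The control peptide library was 1.90-fold [1.72 to 2.10] and the APOE130-149 library 2.03-fold [1.82 to 2.26] above sham. The 2 NMOSD libraries differed by 1.07-fold [0.983 to 1.16], an interval that takes in 1. Unlike Tnf, Ccrl2 was spread over many microglia, with a UMI in 10.9%, 23.3% and 27.8% of them. Thinned to 5000 UMIs per cell these shares were 7.86%, 13.7% and 14.2%, and the top 0.25% of cells held 18.2%, 7.82% and 6.74% of the UMIs.

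Tnf and Ccrl2 were the members called higher in each NMOSD library than in sham, where a call needs 10 CPM or more in either library and a ratio of 1.5-fold or more. For control peptide over sham this was 2 of the 8 members measured at that level, with 0 lower. Over all 8489 genes measured, 1.58% were called higher and 0.931% lower. The median log2 ratio of the 8 members was -0.01, beside -0.08 over all genes. For APOE130-149 over sham, 2 of 8 members were higher and 0 lower, beside 1.74% higher and 0.941% lower of 8506 genes, and the medians were 0.09 and -0.05. For APOE130-149 over control peptide, 0 of 8 members were called in either direction, beside 0.43% higher and 0.108% lower of 8367 genes, with medians of 0.10 and 0.01. Il1rn and Ptgs2 did not reach 10 CPM in microglia of any library, so a call could not be made for them.

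**Figure D2:**
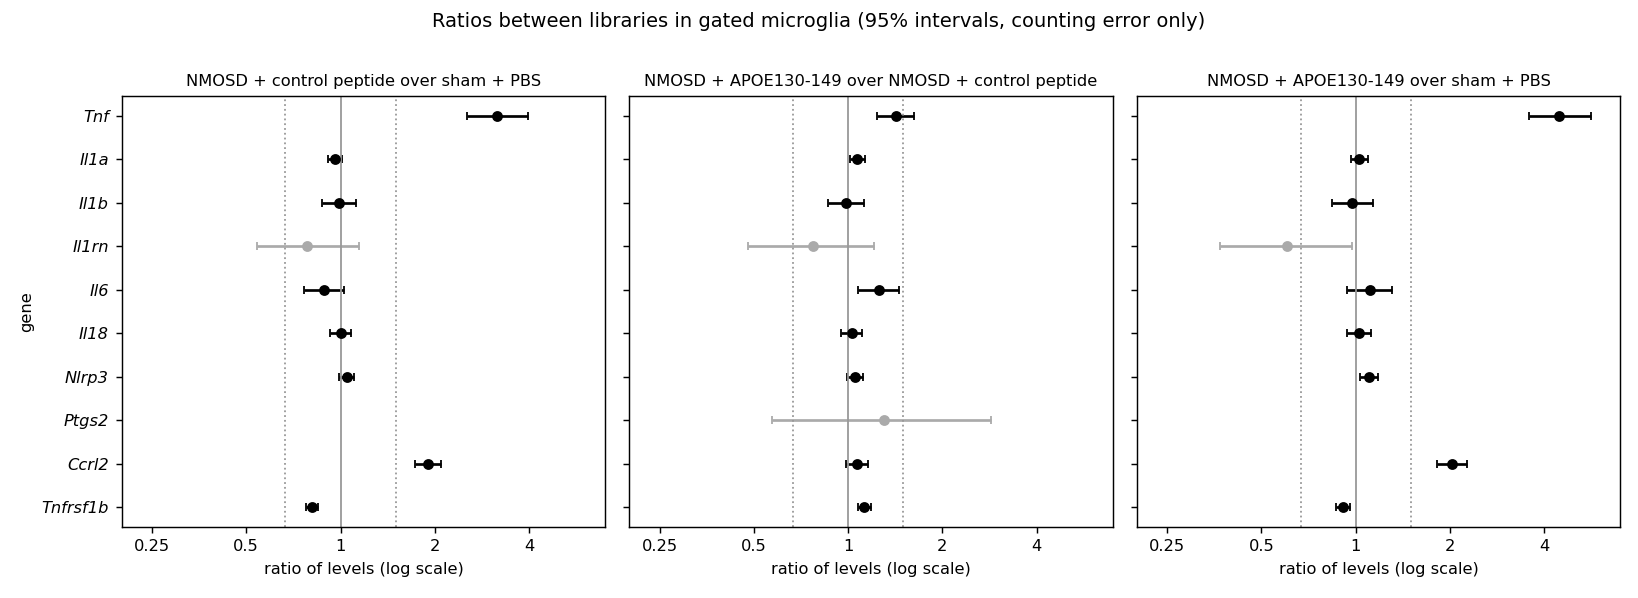
Ratio of levels in gated microglia for the 10 members in each comparison, on a log axis, with exact 95% conditional intervals (counting error only). Dotted lines mark 1.5-fold in either direction, members under the level needed for a call are drawn in grey, and Ptgs2 has no ratio to sham, where it had 0 UMIs. Tnf at 3.15 and Ccrl2 at 1.90 stand apart from the other members in control peptide over sham, and all measured members lie under 1.5 with APOE130-149 over control peptide.

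Immediate early genes, which cells switch on within minutes of a stimulus, moved with Tnf and Ccrl2 between libraries. The summed level of Fos, Fosb, Jun, Junb, Egr1, Atf3, Ier2 and Dusp1 in gated microglia was 1155, 5008 and 7352 CPM, in the same order as Tnf. Microglia with 20 or more UMIs of these genes per 10000 made up 8.73% of sham (295 cells), 80.7% of control peptide (3360) and 90.5% of APOE130-149 microglia (1502). Within that class Tnf stood at 13.5 CPM [9.48 to 18.7] in sham, 11.4 [10.4 to 12.5] in control peptide and 15.3 [13.7 to 16.9] in APOE130-149, and control peptide over sham was 0.841 [0.599 to 1.22]. APOE130-149 over sham was 1.13 [0.798 to 1.64] in this class. Both intervals against sham take in 1 among these microglia. APOE130-149 over control peptide was 1.34 [1.16 to 1.54] in the same class, an interval above 1. In microglia with 5 to 20 such UMIs per 10000, 1611, 616 and 131 cells, Tnf was 3.07, 7.84 and 16.1 CPM, and the ratios to sham were 2.56 [1.64 to 3.98] and 5.25 [3.10 to 8.71]. In that class APOE130-149 over control peptide was 2.05 [1.21 to 3.42] for Tnf. Below 5 such UMIs, Tnf was 1.48, 3.54 and 4.27 CPM from 17, 6 and 1 UMIs.

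Ccrl2 went the other way in the class with most immediate early UMIs, with 53.8, 38.3 and 39.3 CPM and a control peptide over sham ratio of 0.711 [0.599 to 0.850]. In the class with 5 to 20 it was 15.4, 20.2 and 16.1 CPM. The cut points and the gene list were set after the data were seen. How much of the Tnf and Ccrl2 difference goes with the immediate early genes was not tested, and with 1 library a group the induction and anything else that differed between libraries cannot be told apart.

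**Figure D3:**
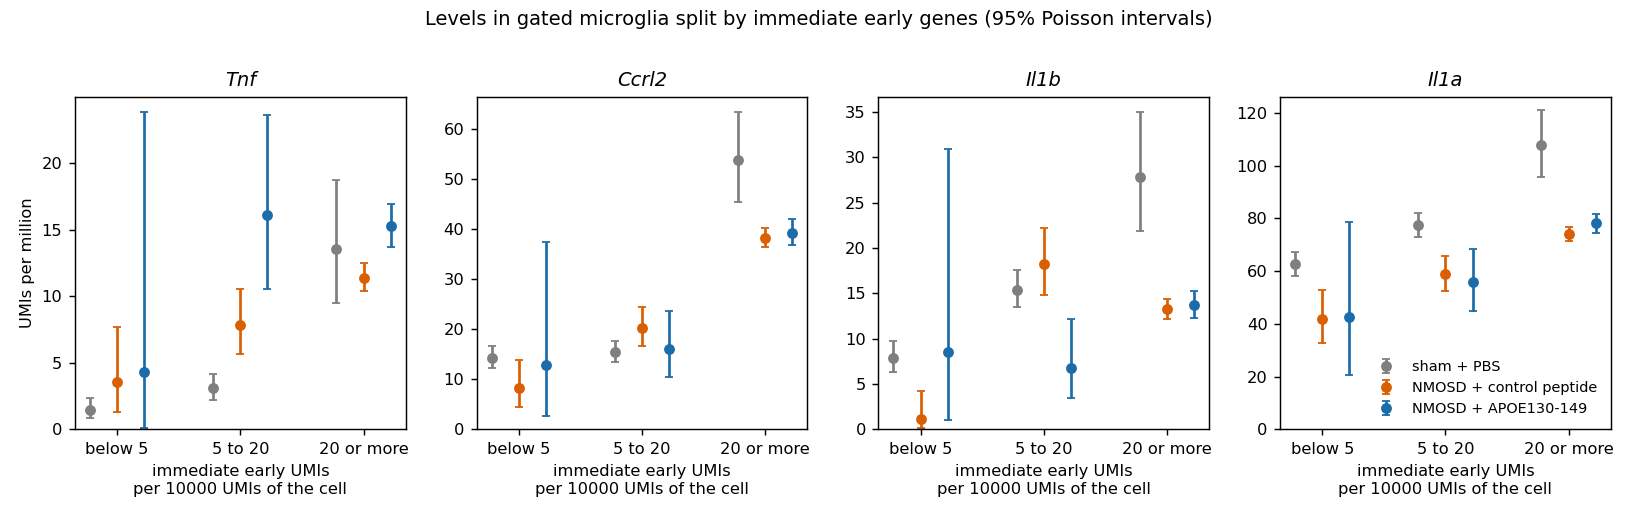
Levels of 4 members (vertical axes, UMIs per 1000000) in gated microglia grouped by their immediate early UMIs per 10000 UMIs (horizontal axes), 1 point per library with exact 95% Poisson intervals. In the class of 20 or more, sham Tnf at 13.5 CPM lies between the NMOSD libraries at 11.4 and 15.3, and sham Ccrl2 at 53.8 lies above both.

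Markers of other cell types in gated microglia also differed between libraries. The 8 choroid plexus or ependymal markers summed to 4.10, 89.3 and 71.1 CPM, led by Kcnj13 in sham and by Ttr in both NMOSD libraries, with 2, 2 and 1 of them at 0. The 5 erythroid markers summed to 0.491, 29.4 and 10.0 CPM, with 2 at 0 in sham. The 13 neutrophil markers summed to 532, 536 and 600 CPM, of which Csf3r, also expressed in microglia, gave 318, 275 and 282. The 12 monocyte markers summed to 43.9, 72.6 and 63.2 CPM. The part of these sources in the Tnf and Ccrl2 differences was not tested.

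Interleukin-1 alpha is a cytokine that is active without cleavage and that microglia hold in the healthy brain. Il1a was at 74.3 CPM in sham, 71.3 in control peptide and 76.4 in APOE130-149, from 2118, 3472 and 1903 UMIs. The 3 levels lay close together, with ratios of 0.960 [0.909 to 1.01], 1.07 [1.01 to 1.13] and 1.03 [0.966 to 1.09] for control peptide over sham, APOE130-149 over control peptide and APOE130-149 over sham. The UMIs were spread widely, with 37.4%, 45.1% and 52.5% of microglia holding one. This rise in share was not seen at 5000 UMIs per cell, where the shares were 29.8%, 28.9% and 29.4%. In neutrophils, a type with little expected Il1a, 0 of 35, 3 of 68 and 0 of 41 cells had a UMI, at median depths of 11289, 10128.5 and 12700 UMIs.

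Il1b encodes interleukin-1 beta, which needs caspase-1 to become active. In gated microglia it was at 13.5, 13.4 and 13.2 CPM from 386, 652 and 329 UMIs, with ratios of 0.989 [0.870 to 1.12], 0.986 [0.861 to 1.13] and 0.975 [0.839 to 1.13]. These near-equal levels rested on few cells in each library. The top 0.25% of microglia held 21.2%, 37.1% and 30.1% of Il1b UMIs, and without them the levels were 10.7, 8.42 and 9.23 CPM. When each cell was weighted equally, Il1b was 17.5 CPM in sham and 10.3 in control peptide, and it was then called lower. Leaving out cells above 2 times the median UMIs of their library also gave a lower call, with 15.1 and 8.41 CPM. Among microglia with 20 or more immediate early UMIs per 10000, Il1b was 27.8, 13.2 and 13.7 CPM, and control peptide over sham was 0.476 [0.373 to 0.615].

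Il1rn encodes the interleukin-1 receptor antagonist, which blocks the receptor. It was low in gated microglia, at 1.86, 1.46 and 1.12 CPM from 53, 71 and 28 UMIs. APOE130-149 over sham was 0.604 [0.368 to 0.973]. That difference was not kept under the stricter microglial gate, where the levels were 1.06, 1.08 and 1.10 CPM.

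The remaining cytokines, Il6 and Il18, and the inflammasome sensor Nlrp3 differed little. Il6, a cytokine that acts through the gp130 receptor chain, was at 10.6, 9.36 and 11.7 CPM, and APOE130-149 over control peptide was 0.32 on the log2 scale, with a ratio interval of 1.08 to 1.45. Il18, whose product drives interferon gamma in lymphocytes, was at 38.2, 38.2 and 39.2 CPM. Nlrp3 was at 66.1, 69.2 and 72.8 CPM, with APOE130-149 over sham at 1.10 [1.03 to 1.17]. Their shares of microglia with a UMI rose with the depth of the libraries, from 7.45% to 13.9% for Il6, 24.7% to 37.2% for Il18 and 36.8% to 52.5% for Nlrp3 between sham and APOE130-149. At 5000 UMIs per cell the 3 shares were 5.21%, 4.78% and 6.09% for Il6, 17.1%, 17.6% and 17.9% for Il18, and 27.0%, 28.8% and 29.9% for Nlrp3.

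Tnfrsf1b encodes TNF receptor 2, the TNF receptor found mainly on immune and endothelial cells. It was at 120 CPM in sham, 97.5 in control peptide and 110 in APOE130-149, from 3435, 4750 and 2739 UMIs. Sham was highest and control peptide lowest, with ratios of 0.809 [0.775 to 0.846], 1.13 [1.07 to 1.18] and 0.912 [0.867 to 0.959]. The direction was the opposite of Tnf in control peptide over sham, and the size was under the 1.5-fold needed for a call. At 5000 UMIs per cell a Tnfrsf1b UMI was seen in 43.5%, 37.2% and 39.9% of microglia.

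Ptgs2 encodes cyclooxygenase 2, the inducible enzyme of prostaglandin synthesis. It was rarely detected in gated microglia, with 0 UMIs in sham, 18 in control peptide and 12 in APOE130-149. The sham count of 0 allows up to 0.105 CPM (3 counts), and the other libraries were at 0.370 and 0.481 CPM. Under the stricter gate control peptide was at 0.115 CPM (5 UMIs), and in microglia taken from clusters sham was at 0.158 and control peptide at 0.0755 CPM, the opposite order. With so few UMIs, in 11 and 12 cells, APOE130-149 over control peptide was 1.30 [0.572 to 2.86].

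Across cell types, members were set apart only where the 95% Poisson intervals of microglia and neutrophils did not overlap in any of the 3 libraries. By that rule 5 members were higher in microglia (Il1a, Il18, Nlrp3, Ccrl2 and Tnfrsf1b) and 3 in neutrophils (Il1b, Il1rn and Ptgs2). The rule was not applied to all genes, so these counts show where each member was found and not a trait of the members as a set. Il6 also had the higher level in microglia and Tnf in neutrophils in each library, but with intervals that overlapped in at least 1 of them. With the stricter gate Ccrl2 left the first set and Tnf joined the second. With types taken from clusters, the first set by the same rule was Il1a and Il18.

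**Figure D4:**
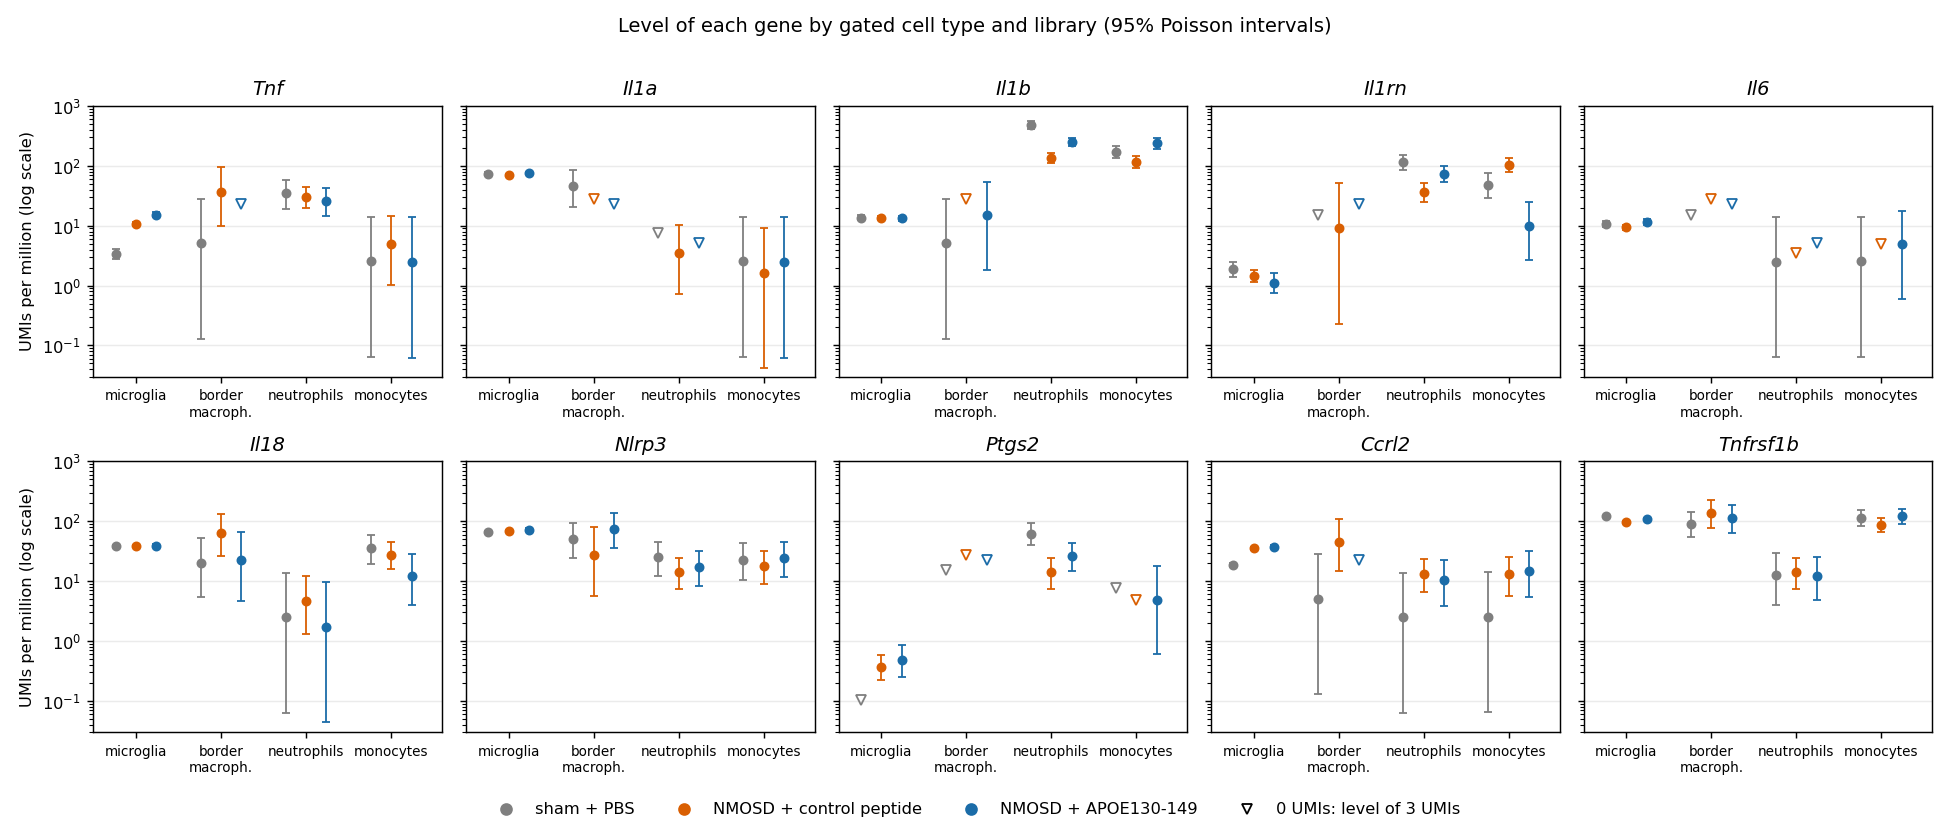
Level of each member (vertical axes, UMIs per 1000000 on a log scale) in the 4 gated cell types, 1 point per library, with exact 95% Poisson intervals. Open triangles stand for 0 UMIs and are drawn at the level of 3 UMIs. Il1b stands at 134 to 478 CPM in neutrophils and 117 to 239 in monocytes, above its 13.2 to 13.5 CPM in microglia, while Il1a stands at 71.3 to 76.4 CPM in microglia.

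In neutrophils Il1b was at 478 CPM [413 to 551] in sham, 134 [111 to 162] in control peptide and 251 [212 to 295] in APOE130-149. The order was sham, APOE130-149, control peptide, while in microglia the 3 levels lay close together. Control peptide over sham was 0.281 [0.221 to 0.356] and APOE130-149 over control peptide was 1.87 [1.45 to 2.41]. With neutrophils taken from clusters the levels were 554, 115 and 141 CPM, so the NMOSD libraries then lay less than 1.5-fold apart. The gated values came from 192, 114 and 144 UMIs in 12, 11 and 12 cells, and a single cell held 32.3%, 28.9% and 20.8% of them, so the intervals, which treat UMIs as independent, are too narrow for the cells behind them.

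Il1rn and Ptgs2 followed the same order in neutrophils. With clusters they stood at 83.1, 19.4 and 24.3 CPM for Il1rn and 79.6, 24.4 and 25.6 for Ptgs2, again less than 1.5-fold apart between the NMOSD libraries. In gated neutrophils Il1rn was at 115, 36.6 and 73.2 CPM, and was seen in 22, 22 and 23 cells, or 62.9%, 32.4% and 56.1% of neutrophils. Its share of cells was therefore also lowest in control peptide. Ptgs2 was at 62.3, 14.2 and 26.1 CPM from 25, 12 and 15 UMIs in 4, 5 and 4 cells, with 41.7% to 53.3% of them in 1 cell. Tnf differed less, at 34.9, 30.7 and 26.1 CPM from 14, 26 and 15 UMIs, and control peptide over sham was 0.879 [0.443 to 1.82].

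In monocytes Il1b was at 172, 117 and 239 CPM from 68, 72 and 97 UMIs in 9, 11 and 8 cells, and 1 cell held 34.7% to 49.5% of them. Il1rn was at 48.2, 104 and 9.86 CPM from 19, 64 and 4 UMIs, highest in control peptide. Tnf was seen with 1, 3 and 1 UMIs. Il1rn thus stood highest in the library where neutrophils were lowest, though the monocyte values rest on 7, 17 and 3 cells with a UMI.

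Border-associated macrophages, which line the vessels and membranes of the brain, held most UMIs of Tnfrsf1b among the members, at 90.9, 138 and 113 CPM from 18, 15 and 15 UMIs. Nlrp3 was at 50.5, 27.5 and 75.6 CPM from 10, 3 and 10 UMIs, and Il18 had 4, 7 and 3 UMIs. Il1a had 9 UMIs in sham and 0 in both NMOSD libraries, with a ratio interval of 0 to 0.920 for control peptide over sham and 0 to 0.758 for APOE130-149 over sham. Ccrl2 had 1, 5 and 0 UMIs and Tnf 1, 4 and 0. Il6 and Ptgs2 were at 0 UMIs in all 3 libraries, where 0 allows up to 15.2, 27.5 and 22.7 CPM. With 20, 17 and 21 cells and at most 18 UMIs of a member in a library, these counts are given as values only.

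Added over all cells of a library, most Tnf UMIs lay in gated microglia, 66.0%, 75.5% and 84.2%. For Il1a the share was 91.7%, 88.2% and 86.4%. Il1b was divided, with 40.9%, 51.8% and 32.8% in microglia, 20.4%, 9.05% and 14.4% in neutrophils and 30.5%, 27.2% and 36.7% in cells with no gate. In sham the cells with no gate held 288 Il1b UMIs, 128 of them in 1 cell. Il1rn lay mostly outside microglia, with 44.2%, 36.2% and 38.3% in cells with no gate and 24.4%, 22.8% and 18.8% in microglia. Ptgs2 lay mostly in cells with no gate in sham and control peptide, 64.4% and 53.3%, with 37.0% in APOE130-149, where another 30.1% lay in cells with both neutrophil and microglia markers. A level taken over all sorted cells would therefore mix several types for Il1b, Il1rn and Ptgs2. Over all cells Il1b was at 29.1, 20.7 and 31.6 CPM, and APOE130-149 over control peptide was then called higher, unlike in microglia.

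**Figure D5:**
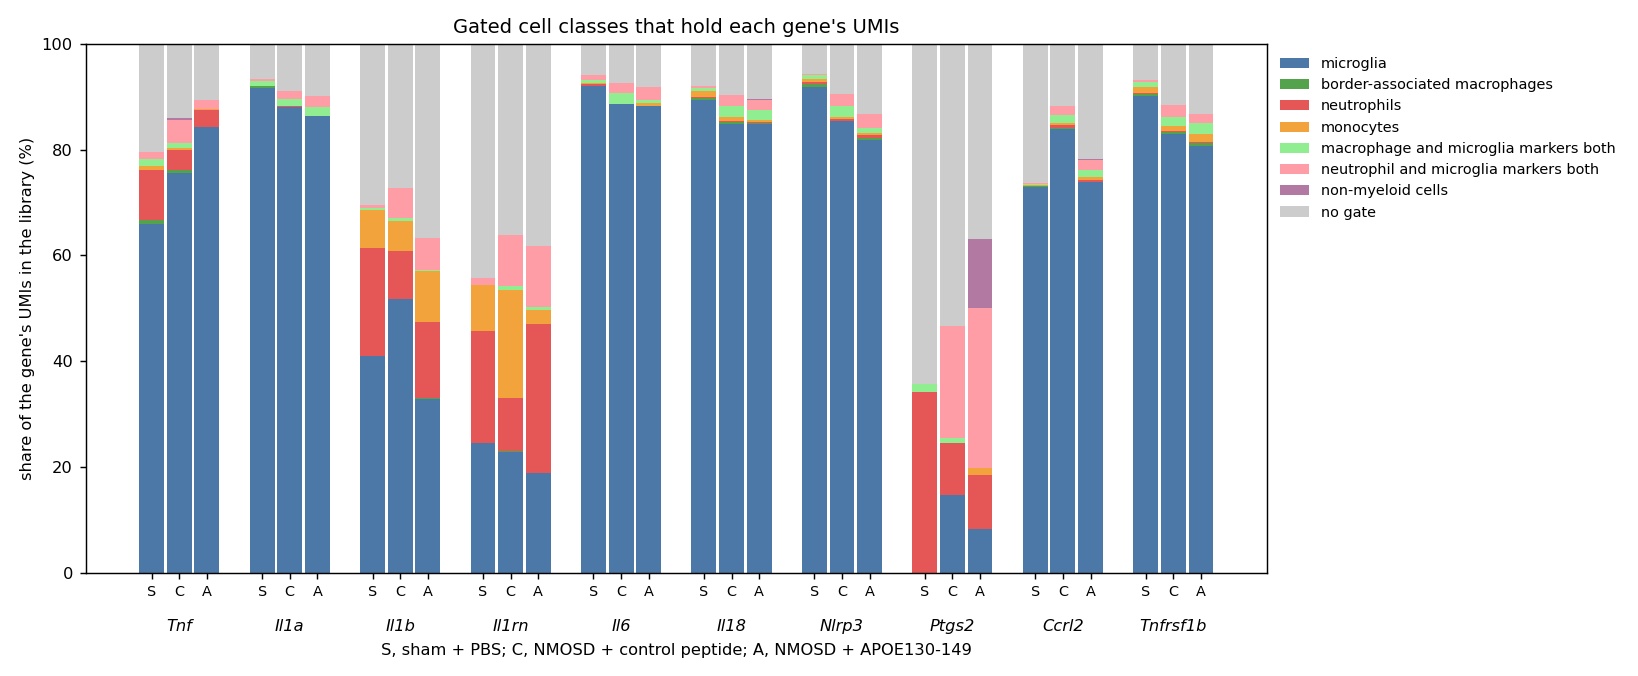
Share of each member's UMIs in a library (vertical axis, percent) held by each gated cell type, by cells with markers of 2 types and by cells with no gate, 1 stacked bar per library and gene (horizontal axis). Il1a, Il6, Il18, Nlrp3 and Tnfrsf1b have over 80% in microglia in each library, while Il1b has 40.9%, 51.8% and 32.8% there.

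Free RNA from neutrophils was set against the microglial values by means of S100a9. If the S100a9 UMIs of microglia had brought Il1b with them at the neutrophil ratio, they would account for 1.96%, 0.703% and 1.67% of microglial Il1b UMIs, and for 0.568%, 0.200% and 0.151% of Tnf UMIs. The microglial gate admitted only cells with few neutrophil marker UMIs, S100a9 among them, so it limited this S100a9 count in advance. The neutrophil Il1b ratio also rests on few cells, as described above. These percentages therefore hold for the gated cells only, and the part of free neutrophil RNA in the microglial values was not tested apart from the gate. Other sources of free RNA were not tested in this way.

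Microglia with a Tnf UMI also held more of some other members. Il1b was 2.63-fold [1.80 to 3.75], 2.70-fold [2.28 to 3.19] and 2.72-fold [2.16 to 3.42] higher in them than in microglia without a Tnf UMI, at like size in all 3 libraries. The sham value rests on 34 Il1b UMIs. Since few cells held many of the Il1b UMIs, these intervals, which treat UMIs as independent, are too narrow. Ccrl2 was 3.90-fold, 1.77-fold and 1.65-fold higher, and Il1a 1.51-fold, 1.21-fold and 1.04-fold. Nlrp3, Tnfrsf1b and Il18 ratios lay between 0.773 and 1.15. Chemokine genes were also higher in them, Ccl4 by 12.8-fold, 2.47-fold and 3.26-fold, Cxcl10 by 8.67-fold, 2.81-fold and 4.32-fold, and Ccl3 by 6.64-fold, 2.00-fold and 2.02-fold. Atf3 was 2.83-fold, 2.55-fold and 2.42-fold higher. H2-Aa had ratios of 0.670 [0.521 to 0.849], 2.10 and 1.54, so it was lower in sham. Cells with a Tnf UMI were deeper, with median UMIs of 10639.5, 15627 and 18188 against 7726, 7695 and 9637. The 3 chemokine genes, Atf3 and H2-Aa were named after their values were seen. They had the highest such ratios in control peptide microglia at 50 CPM or more, so those ratios are high by selection.

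Microglia with an Il1b UMI (220, 257 and 143 cells) held more Tnf, by 1.96-fold, 2.82-fold and 3.77-fold, and more Il1a, by 1.57-fold, 1.41-fold and 1.36-fold. The sham Tnf ratio rests on 15 Tnf UMIs in cells with Il1b, with an interval of 1.05 to 3.42. Cells with an Il1b UMI were also deeper, with median UMIs of 9282, 15935 and 18828 against 7667, 7723 and 9725. With the control peptide, H2-Aa, a gene of MHC class II, was 3.18-fold and Cxcl10 4.74-fold higher in these cells, against 1.54-fold and 1.42-fold in sham. In APOE130-149 the same ratios were 1.68 for H2-Aa and 1.02 [0.861 to 1.19] for Cxcl10. Both genes were named after their values were seen. They were among those with the highest such ratio in control peptide microglia, at 50 CPM or more. Their control peptide ratios are therefore high by selection, and nothing is read from the contrast with the other libraries.

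Across the 12 points of 4 cell types and 3 libraries, the genes whose log2(CPM + 1) was most like that of Tnf were Pacs1 (Pearson correlation 0.94), Fbxo10 (0.92), Nck1 (0.89), Abhd10 (0.87) and Mark2 (0.87). For Il1b they were Smim4 (0.98) and Cnn2, Add3, Aldoa and Capn1 (0.97 each). The points share libraries and the 3 thin types rest on few UMIs, so these correlations are descriptions over 9364 genes.

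The rest of the pathway was taken as 11 lists with 78 genes. Between control peptide and sham microglia 1 gene of these lists was called, Zfp36, beside 1.58% of all genes called higher and 0.931% lower, so nothing is read from the lists without a call. No gene was called in the lists of TNF receptors and shedding (4 of 5 measured), IL-6 receptor chain (4 of 4), inflammasome and processing (8 of 10), IL-1 and Toll-like receptor signalling (13 of 15), TNF receptor signalling (8 of 10), prostaglandin pathway (6 of 10) and chemerin receptor neighbours (3 of 5). Of the IL-1 receptors and decoys 1 of 6 was measured, Il1rl2, at 28.0 and 29.6 CPM, and of the IL-18 receptor genes 0 of 3. The TNF superfamily neighbours gave 1 of 2, Ltb, with a ratio of 0.975.

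The highest and lowest ratios of each list were as follows. Among TNF receptors, Tnfrsf1a had the highest ratio at 1.02 and Tnfrsf1b the lowest at 0.809, and in the IL-6 chain Stat3 was at 1.03 and Il6ra at 0.918. Txnip, an inhibitor of thioredoxin, was highest of the inflammasome list at 1.16 and Nlrp1b, an inflammasome sensor, lowest at 0.704. In IL-1 and Toll-like receptor signalling, where the median log2 ratio was -0.23, the co-receptor Cd14 was highest at 1.14 and the receptor Tlr4 lowest at 0.745. Tradd (1.14) and Ripk1 (0.845), both adaptors or kinases of TNF receptor 1, bounded the TNF signalling list, and Alox5 (1.13) and Hpgds (0.913) the prostaglandin list. Ccr1, a chemokine receptor, had the highest ratio of the chemerin neighbours at 1.12.

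The list of proteins that bind AU-rich mRNA, which control the decay of cytokine mRNAs, had 8 of 8 measured and 1 called higher. Zfp36 (tristetraprolin, which speeds the decay of Tnf mRNA) was at 165, 578 and 838 CPM, with control peptide over sham at 3.50 [3.39 to 3.61] and APOE130-149 over sham at 5.07 [4.91 to 5.23]. Its order over the libraries was that of Tnf and of the immediate early genes. Khsrp had the lowest ratio of the list, 0.780 for control peptide over sham. For APOE130-149 over control peptide, 0 genes were called in any of the 11 lists. For APOE130-149 over sham, Zfp36l1 at 1.65 [1.61 to 1.69] was also called higher and Nlrp1b at 0.595 [0.528 to 0.671] lower.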

How the data were processed

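The deposited matrices hold raw UMI counts, whole numbers for each gene in each barcode that the authors had not normalized, from sorted brain cells of 3 libraries, per the file headers and the values. The submitters' processing notes name the mm10 build, Seurat 4.3.0 and Cell Ranger 5.0.1, while the file headers name cellranger 7.0.1. Whether intronic reads or strand entered the counting is not given in the sources used here. Barcodes had been filtered before deposit.

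Cells were kept when 500 or more genes were seen and mitochondrial UMIs were no more than 10%, which left 11267 of 12155. A cell was gated as microglia at 150 or more marker UMIs per 10000 with at least 5 markers seen and few markers of other types. The cuts were 30 for border-associated macrophages, 500 for neutrophils and 30 for monocytes. These cuts were set after the data were seen, and 83, 84 and 30 microglia lay within 20% above theirs. No doublet caller was run. Cells with markers of 2 types were held apart, and leaving out cells above 2 times the median UMIs was an alternative. Counts were summed per type and library to CPM. The microglial sums of 28510421, 48705774 and 24924602 UMIs put the limit that a count of 0 allows, 3 counts, at 0.105, 0.0616 and 0.120 CPM. A call needed 10 CPM in either library and a 1.5-fold ratio. Intervals were exact at 95%, and PCR reads are already collapsed to UMIs. The interval and call code was tested on simulated data.

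The named genes were the 10 members, the highest and lowest ratio of each pathway list at 10 CPM or more, the 5 genes most like Tnf and Il1b over the 12 type and library points, and the gates' markers. Immediate early genes, genes that led clusters and list genes called in another comparison were named too. Ccl4, Cxcl10, Ccl3, Atf3 and H2-Aa were taken for their ratio between control peptide microglia with and without a Tnf or Il1b UMI. The lowest ratio of 1 list is not reported here. The members and lists were chosen with earlier results of these data known. Alternatives with the stricter gate in the group comparisons and with classes of immediate early UMIs were chosen after seeing the data. Clusters, used as an alternative, came from Leiden clustering without integration of libraries. Python 3.11.15, numpy 2.4.6, scipy 1.17.1, pandas 2.3.3, scanpy 1.11.5, leidenalg 0.10.2, igraph 0.11.9, matplotlib 3.10.9, R 4.3.3 and edgeR 4.0.16 (TMM size factors only) were used.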

Additional observations from a re-analysis of the deposited data

Results flagged for a closer look

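In 3 instances a member's ratio between libraries lay on opposite sides of 1 in neutrophils and in monocytes, with counting intervals that both left out 1. Whether the cell types differ was not tested, since each group is 1 library. Il1b in APOE130-149 over sham was 1.39 in monocytes and 0.524 in neutrophils. Il1rn in control peptide over sham was 2.16 in monocytes and 0.319 in neutrophils. For Il1rn in APOE130-149 over control peptide the ratio was 2.00 in neutrophils and 0.0947 in monocytes. These values rest on few cells: Il1rn was seen in 7, 17 and 3 monocytes and Il1b in 9, 11 and 8, in sham, control peptide and APOE130-149 order, and 1 cell held 34.4% or more of the monocyte UMIs of Il1rn in each library.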

How the results depend on the processing

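No paired analysis was possible because each group is 1 library, and for the same reason no replicate could be left out. The number of members called was 2 for control peptide over sham. It was 1 without the 0.25% of cells richest in the gene (Ccrl2), 1 at a minimum of 20 CPM (Ccrl2), 1 at 2-fold (Tnf), and, in classes chosen after seeing the data, 1 among microglia with 20 or more immediate early UMIs per 10000 (Il1b, lower) and 1 with 5 to 20 (Il6, lower). It stayed at 2, but as Ccrl2 higher and Il1b lower, with Tnf at 9.66 and 8.45 CPM, when cells were weighted equally or cells above 2 times the median UMIs were left out. For APOE130-149 over control peptide the count of 0 became 1 for all cells and 1 without cells above 2 times the median (Il1b higher in both). It became 2 at the lower of the fold thresholds tried (Tnf and Il6, both higher). With 5 to 20 immediate early UMIs it was also 2, but as Tnf higher and Il1b lower. For APOE130-149 over sham the count of 2 became 1 without the richest cells, 1 at 20 CPM and 1 with 20 or more immediate early UMIs (Il1b, lower), and 3 with cells weighted equally (Il1b lower beside Tnf and Ccrl2) and 3 with 5 to 20 immediate early UMIs (Tnf higher, Il1b and Tnfrsf1b lower, Ccrl2 not called). Among microglia with 20 or more immediate early UMIs per 10000, Tnf control peptide over sham turned to -0.25 on the log2 scale. In the same class Ccrl2 turned to -0.49 for control peptide over sham and to -0.45 for APOE130-149 over sham. Size factors by medians of ratios (0.974 to 1.03) or TMM (0.977 to 1.02) changed no call. Members higher in microglia than in neutrophils with intervals apart in every library were 5, 4 with the stricter gate and 2 with clusters, and those higher in neutrophils 3, 4 and 3. Members whose share of microglia with a UMI was higher, with intervals apart, fell at both thinned depths from 7 to 2 for control peptide over sham, from 8 to 0 for APOE130-149 over control peptide and from 8 to 2 for APOE130-149 over sham. Neither the counts by cell type nor these counts of shares were made over all genes. They are therefore not read as a trait of the members. With the top 1% of cells in place of 0.25%, Tnf shares were 67.0%, 39.5% and 50.7% and Il1b shares 44.0%, 60.3% and 48.3%. Where no value above shows it, the cause was not tested. Depth limits Ptgs2 and Il1rn in microglia and all members in the thin types.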

Other observations

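In clusters of cells, an alternative to the gates, among the microglia-like clusters Tnf was high per UMI in one led by Fos, Atf3, Ccl4 and Dusp1 and, in the NMOSD libraries, in one led by the interferon-induced genes Cxcl10, Rsad2 and Ifit3. The first held 45, 430 and 545 cells, or 1.06%, 8.58% and 26.9% of the cells of sham, control peptide and APOE130-149. Tnf there was at 33.4, 20.8 and 18.1 CPM, and the cluster held 10.2%, 19.5% and 44.2% of all Tnf UMIs. In the interferon-led cluster, 137, 255 and 81 cells, Tnf was at 11.7, 32.1 and 26.2 CPM and Il1b at 45.6, 19.7 and 12.7 CPM. Clusters were made without integration and some are mostly of 1 library, so their sizes are not compared.

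Outside microglia, 20 sham cells of a cluster led by Ccr7, Trbc2 and Ms4a4b held 183 Ccrl2 UMIs, or 1132 CPM and 25.3% of all Ccrl2 UMIs of that library. The 40 control peptide and 23 APOE130-149 cells of the cluster stood at 34.5 and 189 CPM. Among cells with both neutrophil and microglia markers, Ptgs2 had 0, 26 and 44 UMIs, and 35 of the 44 lay in 1 cell. These clusters and cells were picked after their values were seen.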
